A study of Mus musculus with 743 samples.

Results

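Neuregulin and ErbB signalling genes were followed across single Schwann cells (SCs), the glia of peripheral nerves, taken from the sciatic nerves of mice at postnatal day 1. The 8 genes, chosen by name from 25700 in the table, were the receptors Erbb2 and Erbb3, the ligand Nrg1, the ligand-cutting proteases Adam17 and Bace1, the signal carriers Gab1 and Ptpn11, and the receptor inhibitor Errfi1. The mice carried P0Cre, a loxP-stop-loxP eYFP reporter at ROSA26 and a βActin-DsRed transgene on a C57BL/6J background. This Cre is active in the SC lineage, so eYFP marks cells of this lineage rather than a stage of it. Cells positive for eYFP were sorted 1 per well into 2 plates, each holding a separate pool of 1 male and 1 female mouse, and read with Smart-seq2, which covers whole transcripts without molecular identifiers. No treatment is listed, and there was no treated or mutant group to compare. All 743 wells belonged to 1 group, and the plate was the replicate (n = 2).

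SCs receive neuregulin from axons. ERBB3 binds the ligand but has little kinase activity of its own, whereas ERBB2 has a strong kinase and no known ligand, so signalling runs through both receptors paired. The adaptor GAB1 and the phosphatase SHP2, encoded by Ptpn11, carry the signal to the MAPK and PI3K pathways. BACE1 and ADAM17 cut neuregulin, the former promoting and the latter limiting myelination when they act in neurons. Signalling by this route sustains SC precursors, drives their division before and around birth, and sets the thickness of myelin.

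The analysis used wells in which 1500 or more genes were detected, which left 287 cells on plate 1 and 334 on plate 2 and set aside 83 and 39 wells. The kept cells had a median of 928401 reads on plate 1 and 791056 on plate 2. A cell was called cycling when Mki67 and Top2a, genes of dividing cells, together reached 50 CPM, that is, 50 reads per 1000000 counted in the cell. Of the rest, a cell was called promyelinating when Ncmap, a gene of myelinating SCs, reached 50 CPM. Cycling cells numbered 53 on plate 1 and 57 on plate 2, promyelinating cells 59 and 60, and other cells 175 and 217. The highest sum of Mki67 and Top2a below the threshold was 44.2 CPM and the lowest above it was 63.4 CPM, and for Ncmap the values were 43.3 and 50.3 CPM. There was 1 cycling cell that also passed the Ncmap threshold.

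The labels of the classes were checked against genes that the rule did not use. The SC markers Sox10, S100b, Cdh19 and Foxd3 had reads in every class on both plates. The 7 genes of dividing cells (Cdk1, Ccnb1, Birc5, Tpx2, Cenpf, Nusap1, Ccna2) summed to 4773 and 4338 CPM in cycling cells and to between 29.5 and 90.3 CPM elsewhere. The 10 promyelinating markers (Gldn, Fa2h, Egr2, Pmp22, Mag, Prx, Pllp, Mal, Cldn19, Drp2) summed to 17862 and 17881 CPM in promyelinating cells and to between 3786 and 5496 CPM elsewhere. The 8 markers of the immature state (Ngfr, L1cam, Ncam1, Sox2, Gap43, Cdh2, Chl1, Nes) summed to 338 and 425 CPM in promyelinating cells, 1113 and 1054 CPM in cycling cells and 950 and 791 CPM in other cells. Within that list Nes went the other way, at 190 CPM in promyelinating, 61.1 CPM in cycling and 55.3 CPM in other cells. Marker lists of endothelial, fibroblast-like, immune, mural and neuronal cells each stayed at or below 56.8 CPM in every class and plate. Pecam1 was at 0 reads in cycling and promyelinating cells, and Pdgfra, Ptprc and Acta2 were at 0 in all classes. Other genes of the mural, immune and fibroblast-like lists were read in some cells. The shares of kept cells with a read were 8.53% for Pdgfrb, 9.98% for Cspg4, 9.34% for Csf1r and 4.03% for Dcn. Pdgfrb had 28.7 CPM in promyelinating, 29.6 CPM in other and 0 CPM in cycling cells, where Cspg4 had 30.9 CPM.

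A list that marks no cell type had its lowest sums in promyelinating cells. The 8 dissociation response genes (Hspa1a, Hspa1b, Atf3, Egr1, Ier2, Fos, Fosb, Junb), which rise when tissue is taken apart, summed to 2205 and 2418 CPM in promyelinating cells, 4726 and 7160 CPM in cycling cells and 5842 and 6380 CPM in other cells. Fos was the largest part, at 1916 CPM in promyelinating, 4522 CPM in cycling and 4476 CPM in other cells. The heat shock genes did not follow the sum. Hspa1b was highest in promyelinating cells, at 35.5 CPM against 18.3 CPM in cycling and 25.3 CPM in other cells. Hspa1a had 89.0 CPM there, above cycling cells (57.6 CPM) and below other cells (114 CPM). Several genes of the list also respond to growth factor receptors. The number of detected genes differed too, with medians of 3425 and 3477 in cycling cells, 3690 and 3550 in promyelinating cells and 2775 and 2819 in other cells.

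Read counts were summed over the cells of a class and plate, giving 6 sums, and each difference was tested with edgeR's quasi-likelihood test across 13292 genes, with Benjamini-Hochberg adjustment over all of them and a threshold of 0.05. Class levels are CPM of these sums. Log2 differences come from the fit, which rescales the sums, so they can depart slightly from the ratio of the printed CPM. The 3 comparisons share their sums and are not independent of each other.

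Erbb3 was the most abundant of the 8 genes, and Nrg1 was not detected. Levels can be ordered between genes only per kilobase of exons, and on that scale the mean over all kept cells was 49.3 ± 13.1 CPM per kilobase for Erbb3 (SD, n = 2 plates), 16.5 ± 1.59 for Adam17, 15.8 ± 3.26 for Erbb2, 13.9 ± 3.31 for Bace1, 12.3 ± 1.57 for Ptpn11, 9.41 ± 0.229 for Gab1 and 1.26 ± 0.396 for Errfi1. The gap between Erbb3 and Adam17 was larger than the spread between plates, as were those between Ptpn11 and Gab1 and between Gab1 and Errfi1. Adam17, Erbb2, Bace1 and Ptpn11 lay closer to their neighbours in this order than the spread between plates. Erbb3 was 2.99 times as high as the next gene per kilobase.

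**Figure D1:**
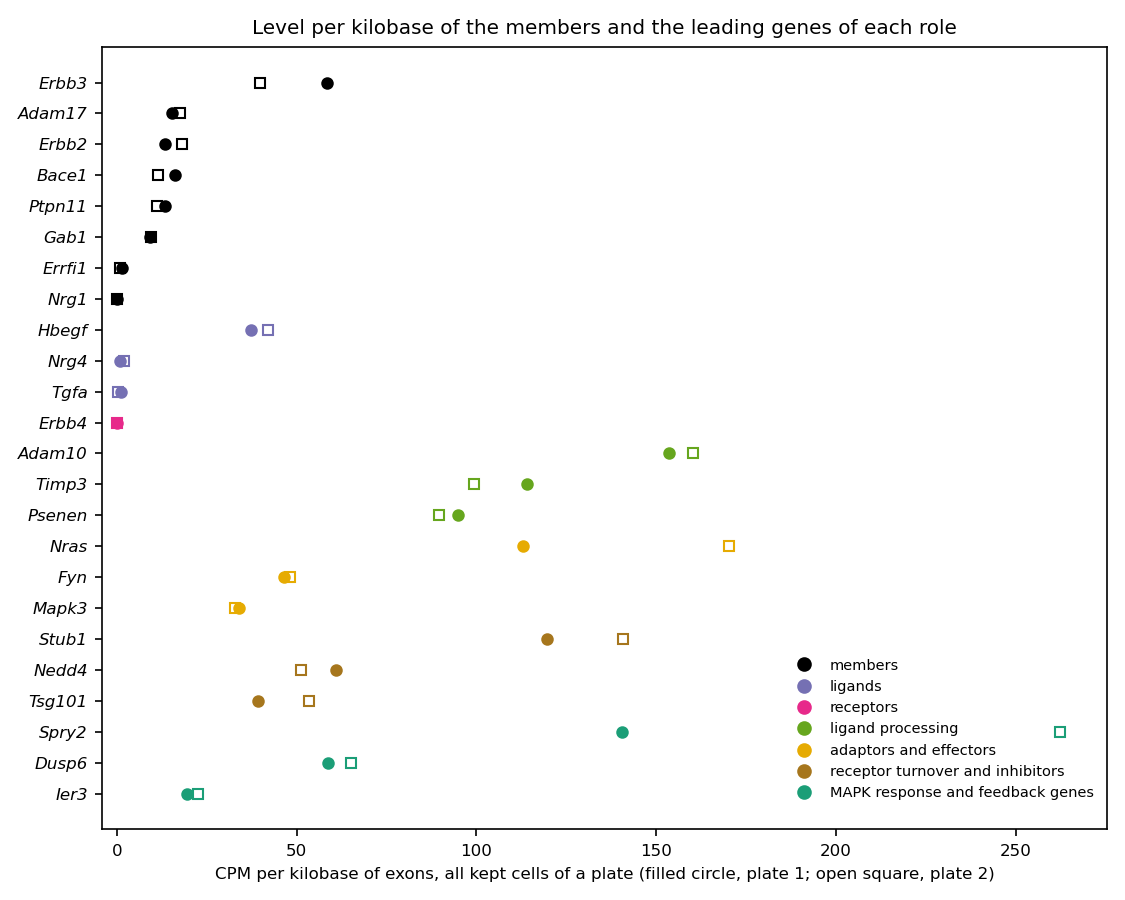
Level in CPM per kilobase of exons (horizontal axis, linear) over all kept cells of each plate, for the 8 members and for the leading detected genes of each role in the wider pathway. Filled circles are plate 1, open squares plate 2 and colours the roles. Erbb3 stands above the other members, while Spry2, Adam10 and Nras have the 3 highest means of all genes shown.

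Erbb3 (ENSMUSG00000018166, chr10:128567523-128589652, minus strand, GRCm38) encodes the receptor that binds neuregulin. Its level was 332 CPM on plate 1 and 235 CPM on plate 2 in cycling cells, 279 and 228 CPM in promyelinating cells, and 382 and 246 CPM in other cells. Plate 1 was the higher plate in each class, and the ranges of the classes overlapped in each comparison. Within each plate the promyelinating value was the lowest. The log2 difference was -0.02 (95% interval -0.71 to 0.68) for cycling against other cells, -0.24 (-0.93 to 0.46) for promyelinating against other cells and -0.22 (-0.91 to 0.47) for promyelinating against cycling cells. The edgeR adjusted p-values were 0.995, 0.898 and 0.747. The intervals leave room for a change of Erbb3 of somewhat under 1 log2 unit in each comparison. They come from a fit without a plate term, so they include the offset between plates. The log2 ratios within plates 1 and 2 were -0.06 and 0.05, -0.39 and -0.01, and -0.33 and -0.07 in the same order.

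The plates differed more in Erbb3 than the classes did. Over all kept cells it took 352 CPM on plate 1 and 241 CPM on plate 2, a log2 difference of 0.55. Of 6515 genes with at least 20 CPM, 78.1% had a smaller difference between plates. With 1 pool of mice per plate, the pool and the plate cannot be told apart.

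Erbb3 was read in most cells. At least 1 read was found in 96.2% and 82.5% of cycling cells, 91.5% and 91.7% of promyelinating cells and 80.6% and 75.6% of other cells on plates 1 and 2. When each cell was thinned to 100000 reads, with 27 shallower cells left out, the shares were 94.2% and 73.6%, 82.8% and 81.8%, and 73.8% and 67.3%. Shares were lowest in other cells on plate 1 and on plate 2, while the level in CPM was highest there, so no order of the classes is read from the shares.

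Erbb2 (ENSMUSG00000062312, chr11:98412470-98437716, plus strand, GRCm38) encodes the partner receptor with the active kinase. Its level was 79.9 and 87.3 CPM in cycling cells on plates 1 and 2, 69.9 and 64.3 CPM in promyelinating cells, and 67.7 and 105 CPM in other cells. The values of other cells reached above and below both values of cycling cells, and 1 of the promyelinating values lay below all the rest. The log2 difference was 0.08 (95% interval -0.73 to 0.90) for cycling against other cells, -0.28 (-1.10 to 0.53) for promyelinating against other cells and -0.37 (-1.18 to 0.45) for promyelinating against cycling cells. The edgeR adjusted p-values were 0.983, 0.894 and 0.616. Exons of Erbb2 overlap Mien1 on the opposite strand, and how strand was handled in counting is not stated, so its level is uncertain to that extent.

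Erbb2 reads came from fewer cells than those of Erbb3. At least 1 read was found in 34.5% of cells on plate 1 and 32.6% on plate 2, against 85.7% and 79.6% for Erbb3. Both receptors were read in the same cell in 183 of 621 cells, or 29.5% (exact 95% binomial interval 25.9 to 33.2), Erbb3 alone in 329, Erbb2 alone in 25 and neither in 84. Intervals of this kind cover counting error only. Among cells with an Erbb3 read, Erbb2 was read in 37.8% on plate 1 and 33.8% on plate 2, and among cells without one in 14.6% and 27.9%. A cell without a read is not shown to lack the transcript.

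Nrg1 (ENSMUSG00000062991, chr8:31814551-32884029, minus strand, GRCm38), the neuregulin gene, had 0 reads in all 743 wells. In the kept cells this was 0 of 621, a count that allows a share of up to 0.483% (3 counts of the total), with an exact 95% binomial upper bound of 0.592%. Both limits cover counting error only and concern cells with a read. Axons of sensory and motor neurons are the known source of the membrane-bound form of neuregulin in nerve, and their cell bodies lie outside the sciatic nerve. The neuronal marker list (Snap25, Stmn2, Nefl, Nefm, Syt1, Tubb3) summed to between 7.35 and 25.1 CPM over the classes and plates.

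**Figure D2:**
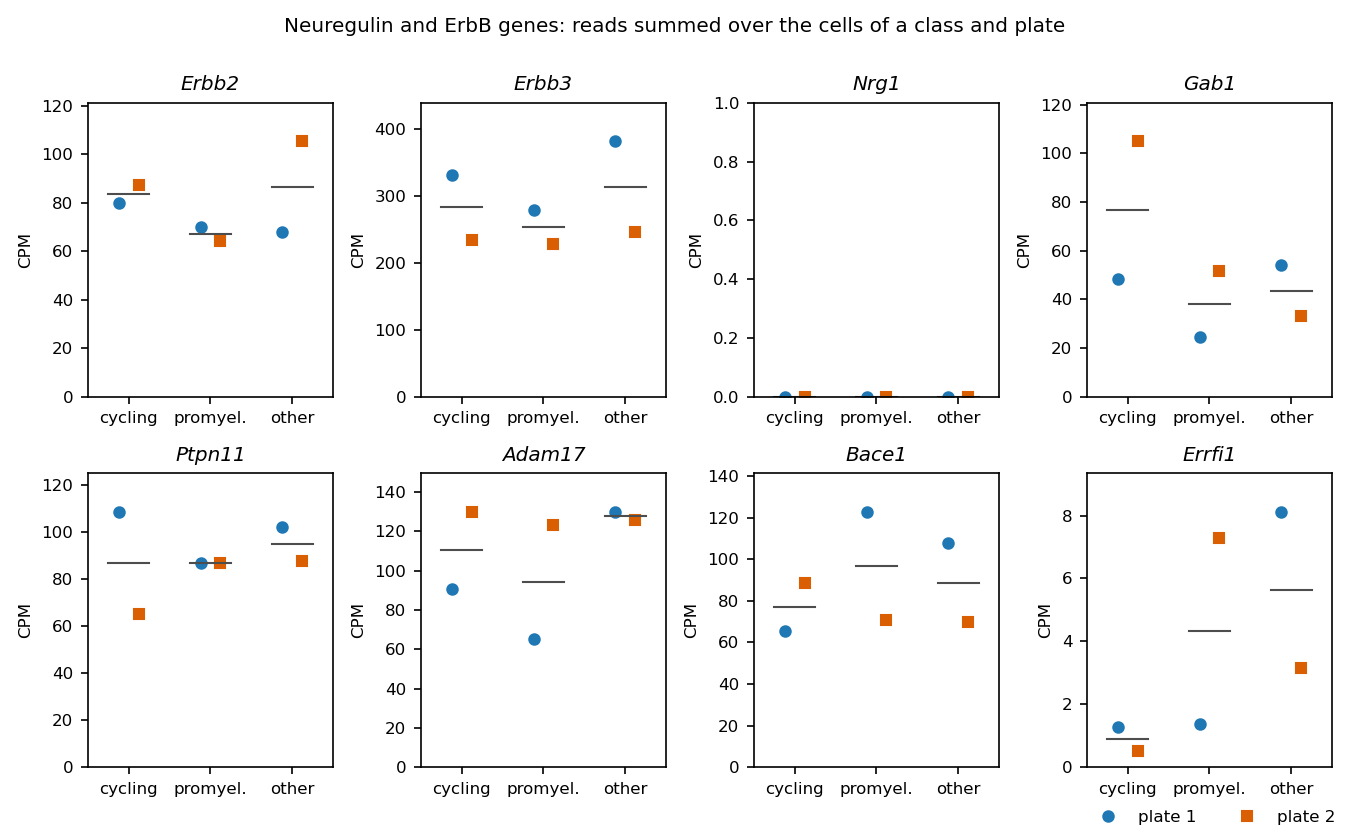
Level in CPM (vertical axes, linear from 0, a scale for each gene) of the 8 members in sums over cycling, promyelinating (promyel.) and other cells, with circles for plate 1, squares for plate 2 and a bar at the mean. The plates of a class are often farther apart than the classes, as for Erbb3 with 382 and 246 CPM in other cells, and Nrg1 is at 0 throughout.

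The signal carriers did not differ past the threshold either. Ptpn11 (ENSMUSG00000043733, chr5:121130533-121191397, minus strand, GRCm38), which encodes the phosphatase SHP2, had 109 and 64.9 CPM in cycling cells on plates 1 and 2, 87.0 and 86.7 CPM in promyelinating cells, and 102 and 87.7 CPM in other cells. Its log2 difference was 0.01 (95% interval -0.83 to 0.85) for cycling against other cells, -0.05 (-0.89 to 0.79) for promyelinating against other cells and -0.06 (-0.90 to 0.78) for promyelinating against cycling cells. Promyelinating cells had almost the same value on both plates, just below both values of other cells.

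Gab1 (ENSMUSG00000031714, chr8:80764438-80880519, minus strand, GRCm38) encodes a docking adaptor downstream of the receptors. It had 48.4 and 105 CPM in cycling cells, 24.6 and 51.5 CPM in promyelinating cells, and 53.9 and 33.1 CPM in other cells. The log2 difference between cycling and other cells was 0.93 (95% interval -0.36 to 2.22, edgeR adjusted p = 0.632). This difference rested on plate 2, where the log2 ratio was 1.78, against -0.01 on plate 1. Between promyelinating and cycling cells the log2 difference was -1.05 (95% interval -2.35 to 0.25, unadjusted p = 0.0989 and adjusted p = 0.343 in edgeR), with -1.06 on plate 1 and -1.05 on plate 2. That was the lowest unadjusted p of any member in any comparison. Between promyelinating and other cells it was -0.12 (-1.41 to 1.16), with opposite directions on the plates. A few cells carried much of the Gab1 signal, with 3 of 53 cycling cells on plate 1 holding 86.6% of its reads there and 3 of 57 on plate 2 holding 58.8%.

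Of the proteases, Adam17 (ENSMUSG00000052593, chr12:21323509-21373632, minus strand, GRCm38), a sheddase of neuregulin and of other EGF-family ligands, had 90.9 and 130 CPM in cycling cells, 65.0 and 123 CPM in promyelinating cells, and 130 and 126 CPM in other cells. Both promyelinating values lay below both values of other cells, by much on plate 1 and by little on plate 2. The log2 difference was -0.09 (95% interval -0.94 to 0.77) for cycling against other cells, -0.36 (-1.22 to 0.49) for promyelinating against other cells and -0.28 (-1.13 to 0.58) for promyelinating against cycling cells. Adam17 reads were found in 69.3% of cells on plate 1 and 69.2% on plate 2, a larger share than for Erbb2 at a similar level per kilobase, and its median over the cells with a read was 73.5 CPM against 149 CPM for Erbb2. Its exons overlap Iah1 on the opposite strand.

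Bace1 (ENSMUSG00000032086, chr9:45838580-45864399, plus strand, GRCm38) encodes the β-secretase, which activates neuregulin on axons. It had 65.6 and 88.7 CPM in cycling cells, 123 and 70.8 CPM in promyelinating cells, and 108 and 70.0 CPM in other cells. Plate 1 exceeded plate 2 in promyelinating and in other cells, and the reverse held in cycling cells. The log2 difference was -0.08 (95% interval -1.02 to 0.85) for cycling against other cells, 0.20 (-0.73 to 1.13) for promyelinating against other cells and 0.28 (-0.65 to 1.22) for promyelinating against cycling cells. Its exons overlap Rnf214 and Gm49338 on the opposite strand.

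Errfi1 (ENSMUSG00000028967, chr4:150853919-150868892, plus strand, GRCm38) encodes MIG6, a feedback inhibitor that binds the kinases of the EGF receptor family. It had 1.29 and 0.510 CPM in cycling cells, 1.36 and 7.30 CPM in promyelinating cells, and 8.12 and 3.15 CPM in other cells. Reads were found in 20 of 621 cells (3.22%, exact 95% binomial interval 1.98 to 4.93), and 3 cells held 76.6% of them. Its log2 differences of -2.51 (95% interval -6.75 to 1.73), -0.32 (-4.32 to 3.69) and 2.20 (-1.99 to 6.39), in the order of comparisons used above, have intervals too wide for a direction at this number of cells.

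**Figure D3:**
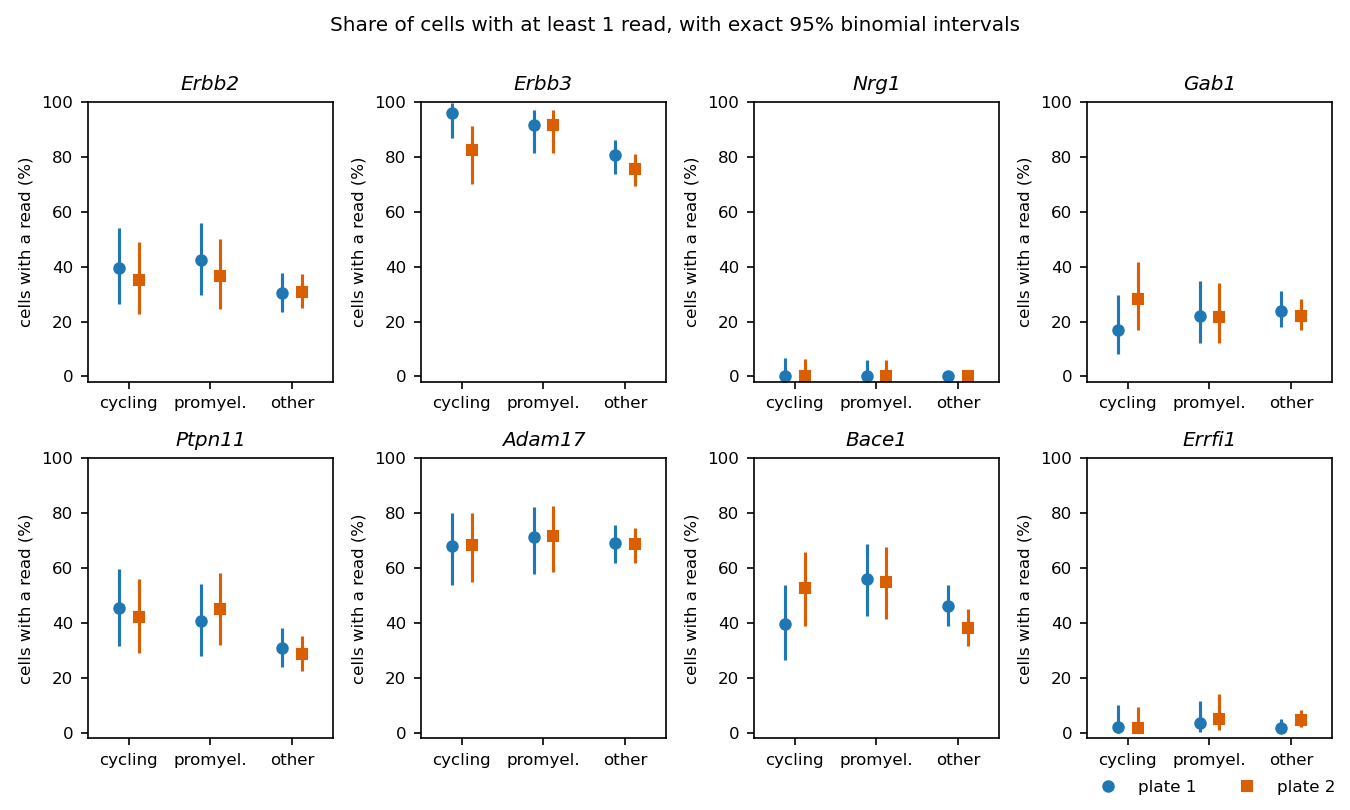
Share of cells with at least 1 read (vertical axes, percent) of each member in cycling, promyelinating (promyel.) and other cells, circles for plate 1 and squares for plate 2, with exact 95% binomial intervals that cover counting error only. Erbb3 is read in 75.6% to 96.2% of cells, Errfi1 in at most 5% and Nrg1 in none.

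Over the list, 0 of the 7 members tested passed the edgeR threshold in any of the 3 comparisons, and 0 had an unadjusted p under 0.05. DESeq2 also called 0 members. Of all genes tested with edgeR, 1.01% passed for cycling against other cells, 1.79% for promyelinating against other cells and 5.95% for promyelinating against cycling cells, and with DESeq2 6.03%, 7.59% and 17.1%, so a list of 7 with 0 called does not stand out from the background. At an unadjusted p under 0.05 the background was 10.1%, 11.2% and 20.1%. The median log2 difference of the members was -0.02, -0.24 and -0.22, beside -0.07, -0.07 and -0.02 over all genes tested. The plate values of the classes did not overlap for 1, 2 and 2 of the 7 members, that is for Errfi1, for Ptpn11 and Adam17, and for Erbb2 and Errfi1. Over all genes tested, 43.6%, 44.4% and 47.8% did not overlap in these comparisons.

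**Figure D4:**
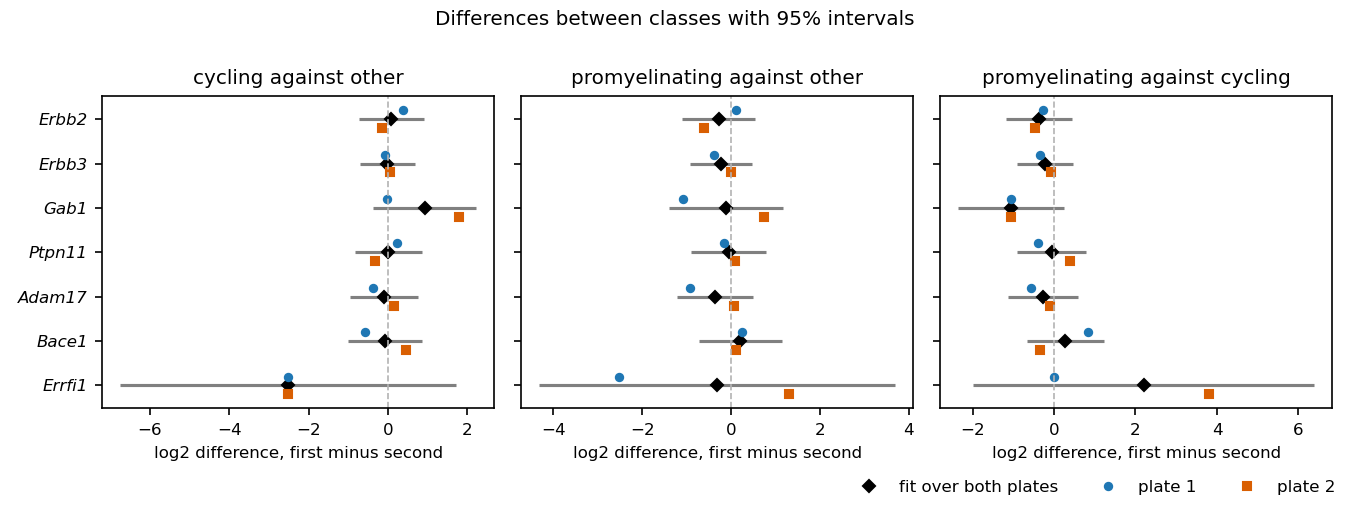
Log2 difference between classes (horizontal axes) for the 7 members with reads, in the comparisons named above each panel. Diamonds and lines are the edgeR estimate with its 95% interval, circles the ratio on plate 1 and squares that on plate 2. All intervals cross 0, and the widest belong to Errfi1, for example -6.75 to 1.73 for cycling against other cells.

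The members did not rise and fall together from cell to cell. Within a plate, Spearman's rho of log2(CPM + 1) across cells lay between -0.09 and 0.22 for the 21 pairs of the 7 detected members, with a median of 0.02 for the means over both plates. Erbb2 and Erbb3 had a rho of 0.15 on plate 1 and -0.03 on plate 2. Cells of a plate share a pool and a run, and rho with the number of detected genes was as high as 0.27 for Erbb2 on plate 1, so these values are a description of sparse counts. Among 4926 genes compared, no gene reached a mean rho of 0.3 with any of the 5 members above 50 CPM; the highest was 0.18, with Erbb2.

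The wider pathway was examined in 80 further genes of 6 roles, of which 74 had a read and 68 could be tested. For cycling against other cells, edgeR called 0 of them, with 1 at an unadjusted p under 0.05 (Fyn), where DESeq2 called 1 and the edgeR background was 0.895% of all genes higher and 0.113% lower. For promyelinating against other cells it called 5 of 68, with 2 higher, among them Fyn, and Hbegf, Socs3 and Spry2 lower, beside 0.497% of all genes higher and 1.29% lower. For promyelinating against cycling cells it called 7 of 68, which were these 5 in the same directions and Adam19 and Plcg1, both lower, beside 2.12% of all genes higher and 3.83% lower. The median log2 difference of the 68 genes was -0.05, -0.18 and 0.01 in the 3 comparisons, beside -0.07, -0.07 and -0.02 over all genes. The list was chosen with earlier results of these data known, and no call of the list as a whole is made.

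Sequences at RefSeq starts of 3 of the called genes are shown because Socs3 and Spry2 fell and Fyn rose in promyelinating cells. The RefSeq table of promoters matched 5 of the 8 members and not Erbb3, Nrg1 and Bace1. The sequences are the 250 bases before the start of each gene in RefSeq (GRCm38.p6), 5′ to 3′ on the strand of the gene, with motif matches in capitals. Socs3 is at chr11:117969367-117969616 (minus strand), Spry2 at chr14:105896820-105897069 (minus strand) and Fyn at chr10:39369549-39369798 (plus strand). In GENCODE M21 the Spry2 window lies just upstream of the gene (chr14:105891947-105896819), whereas the other windows lie inside the annotated spans of Socs3 (chr11:117966079-117970047) and Fyn (chr10:39368855-39565381), which hold transcripts with starts farther upstream.
Socs3: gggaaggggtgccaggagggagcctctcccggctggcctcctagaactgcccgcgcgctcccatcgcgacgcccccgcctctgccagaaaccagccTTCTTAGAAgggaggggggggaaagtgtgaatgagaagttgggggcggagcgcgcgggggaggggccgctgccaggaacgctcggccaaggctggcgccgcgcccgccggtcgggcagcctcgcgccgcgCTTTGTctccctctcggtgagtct
Spry2: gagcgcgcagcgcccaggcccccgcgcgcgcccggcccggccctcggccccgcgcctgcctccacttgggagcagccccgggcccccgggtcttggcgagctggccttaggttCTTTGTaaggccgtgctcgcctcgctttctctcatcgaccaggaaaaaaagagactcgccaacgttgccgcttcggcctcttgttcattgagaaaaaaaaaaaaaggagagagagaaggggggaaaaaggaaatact
Fyn: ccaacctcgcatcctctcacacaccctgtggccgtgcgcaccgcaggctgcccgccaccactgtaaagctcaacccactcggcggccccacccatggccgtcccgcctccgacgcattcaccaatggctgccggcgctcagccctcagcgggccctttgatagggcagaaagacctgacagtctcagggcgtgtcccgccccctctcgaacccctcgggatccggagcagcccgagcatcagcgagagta
For comparison, 4 motifs were searched on both strands in these windows and in those of 32851 promoters of the same length. TTCNNNGAA, bound by STAT factors, had 1 match for Socs3 and was present in 7.02% of all promoters. ACAAAG, bound by Sox factors, had 1 match for Socs3 and 1 for Spry2, in each case as CTTTGT on the strand shown, and was present in 16.5% of all promoters. TGANTCA, bound by AP-1 and present in 6.75% of promoters, and CCGGAA, bound by ETS factors and present in 12% of promoters, had no match in the 3 windows. No match was found for Fyn. Members that were not called held matches too: the STAT motif in 1 of 2 windows of Gab1, the ETS motif in Ptpn11 and Adam17, and the Sox motif in 1 of 2 windows of Errfi1, with none for Erbb2. Of the other called genes, Adam19 had the AP-1 motif in 1 of 3 windows and Plcg1 had none. A match is a description of letters and not a binding site.

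Among the ligands, 1 of 4 tested genes passed the test, in both comparisons of promyelinating cells. Of all genes, 1.79% passed against other cells and 5.95% against cycling cells, so 1 gene of 4 is not read as a result about the role. Hbegf (ENSMUSG00000024486), which encodes a ligand of the EGF receptor and of ERBB4, had 17.3 and 31.9 CPM in promyelinating cells on plates 1 and 2, 227 and 194 CPM in cycling cells and 220 and 257 CPM in other cells. Promyelinating cells lay far below both other classes on each plate. Hbegf fell by 3.20 on the log2 scale (95% interval -4.03 to -2.37, edgeR adjusted p = 0.00355) against other cells and by 3.15 (-3.98 to -2.33, adjusted p = 0.00162) against cycling cells. Reads of Hbegf were found in 13.6% and 11.7% of promyelinating cells, against 44% and 44.2% of other cells. Nrg4, another neuregulin gene, had 12.01 and 16.2 CPM in promyelinating cells, 6.45 and 12.9 CPM in cycling cells and 2.87 and 9.90 CPM in other cells. It was read in 45.8% and 36.7% of promyelinating cells and in 12% and 18.9% of other cells, and its log2 difference of 1.23 from other cells did not pass the test (unadjusted p = 0.266 in edgeR). Nrg3, Areg, Ereg and Epgn had 0 reads in the kept cells, Nrg2 and Egf were too low to test, and the means per kilobase were 1.40 CPM for Nrg4 and 0.687 CPM for Tgfa.

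Of the remaining receptors of the family, Egfr had 0 reads in the kept cells. Erbb4 had 5.58 and 0.173 CPM in promyelinating cells, 0 and 0.0347 CPM in other cells and 0 reads in cycling cells, and was too low to test. Per kilobase, Erbb4 averaged 0.0476 CPM over all kept cells, against 15.8 CPM for Erbb2 and 49.3 CPM for Erbb3.

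Of the 12 genes of ligand processing, 0 passed the edgeR test for promyelinating against other cells, with 3 at an unadjusted p under 0.05, beside 11.2% of all genes. Adam10, a sheddase related to Adam17, was the leading gene of this role at 157 ± 4.62 CPM per kilobase (SD, n = 2), followed by Timp3, an inhibitor of ADAM17, at 107 ± 10.5 and Psenen, a subunit of γ-secretase, at 92.2 ± 3.76. Adam19, a protease that can process neuregulin, had 0 and 2.73 CPM in promyelinating cells, 164 and 87.5 CPM in cycling cells and 123 and 80.9 CPM in other cells. Its values did not overlap between promyelinating cells and either other class. The same held for 44.4% of all genes tested against other cells and 47.8% against cycling cells. Against cycling cells Adam19 passed narrowly (edgeR adjusted p = 0.0473), and with the plate as a block it no longer did (adjusted p = 0.103). Only 7 of 13 alternatives called it against cycling cells, with adjusted p-values between 0.00355 and 0.317 over all 13. Against other cells the edgeR adjusted p was 0.116, and 3 of 13 alternatives called it there, with adjusted p-values between 0.0107 and 0.558 over all 13.

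Of the adaptors and effectors, 26 could be tested. Fyn (ENSMUSG00000019843), a Src-family kinase with a known part in myelinating glia, had 442 and 540 CPM in promyelinating cells, 77.4 and 73.2 CPM in cycling cells and 162 and 147 CPM in other cells. The classes stood apart on both plates, in the order promyelinating, other and cycling. Fyn rose by a log2 difference of 1.75 (95% interval 1.21 to 2.28, edgeR adjusted p = 0.00801) against other cells and of 2.65 (2.10 to 3.20, adjusted p = 5.13e-04) against cycling cells. Between cycling and other cells it was -0.90 (-1.43 to -0.38, edgeR adjusted p = 0.176). Reads of Fyn were found in 93.2% and 95% of promyelinating cells, against 48% and 53% of other cells.

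Nras, which encodes a small GTPase upstream of MAPK and was the leading adaptor or effector per kilobase, had 424 and 667 CPM in promyelinating cells and 704 and 993 CPM in other cells, a log2 difference of -0.56 that did not pass the test (unadjusted p = 0.123 in edgeR).

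Plcg1, which encodes a phospholipase activated by receptor tyrosine kinases, was low throughout. It had 0 reads in promyelinating cells, 6.91 and 7.08 CPM in cycling cells and 5.65 and 6.89 CPM in other cells. No fold is given against the class without reads, since reads of 1 cell are not independent molecules. Only the former comparison passed the edgeR test (adjusted p = 0.0416, and 0.0932 against other cells), and with the plate as a block it did not (adjusted p = 0.0734). Reads of Plcg1 were found in 3.77% and 5.26% of cycling cells and in 3.43% and 3.23% of other cells, while 0 of 119 promyelinating cells allows a share of up to 2.52%, so few cells carry this difference. Its exons overlap Zhx3 on the opposite strand. Grb7, an adaptor that binds ErbB receptors, had 0 reads in the kept cells.

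Among 14 genes of receptor turnover and inhibition, 1 passed, in both comparisons of promyelinating cells, beside 1.79% and 5.95% of all genes. Socs3 (ENSMUSG00000053113), which encodes an inhibitor of cytokine receptor signalling, had 9.19 and 6.45 CPM in promyelinating cells, 72.9 and 54.6 CPM in cycling cells and 74.0 and 76.4 CPM in other cells. It fell by 3.19 on the log2 scale (95% interval -4.29 to -2.09, edgeR adjusted p = 0.0143) against other cells and by 3.08 (-4.18 to -1.99, adjusted p = 0.00746) against cycling cells. The leading genes of this role were Stub1, Nedd4 and Tsg101, which encode parts of the ubiquitin and sorting machinery, at 130, 56.2 and 46.3 CPM per kilobase, and none of these 3 passed the edgeR test in any comparison.

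Among 12 tested MAPK response and feedback genes, 1 passed, again in both comparisons of promyelinating cells, beside 1.79% and 5.95% of all genes. Spry2 (ENSMUSG00000022114), a feedback inhibitor of receptor tyrosine kinase signalling, had 42.0 and 106 CPM in promyelinating cells, 290 and 506 CPM in cycling cells and 377 and 691 CPM in other cells. Plate 2 was the higher plate in each class, and the promyelinating value was the lowest on both plates. Spry2 fell by 2.77 on the log2 scale (95% interval -3.89 to -1.65, edgeR adjusted p = 0.0283) against other cells and by 2.47 (-3.58 to -1.37, adjusted p = 0.0220) against cycling cells. Against other cells the call was lost without the filter on low counts (adjusted p = 0.104) and in cells of at least 2500 genes (0.0507), and against cycling cells without the filter (0.0743), in edgeR each time. At 201 ± 86.0 CPM per kilobase over all kept cells (SD, n = 2) it was the highest of the 88 genes examined. Dusp6, a phosphatase that switches off ERK, had 80.6 and 129 CPM in promyelinating cells and 217 and 216 CPM in other cells, a log2 difference of -0.97 that did not pass after adjustment (edgeR adjusted p = 0.210). Against cycling cells, at 187 and 243 CPM, the log2 difference of Dusp6 was -1.09, which did not pass in the main fit (edgeR adjusted p = 0.0759). It passed in 8 of 13 alternatives, among them the plate as a block (edgeR adjusted p = 0.0437). The median log2 difference of the 12 genes was -0.26 for cycling against other cells, -0.95 for promyelinating against other cells and -0.52 for promyelinating against cycling cells, beside -0.07, -0.07 and -0.02 over all genes.

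**Figure D5:**
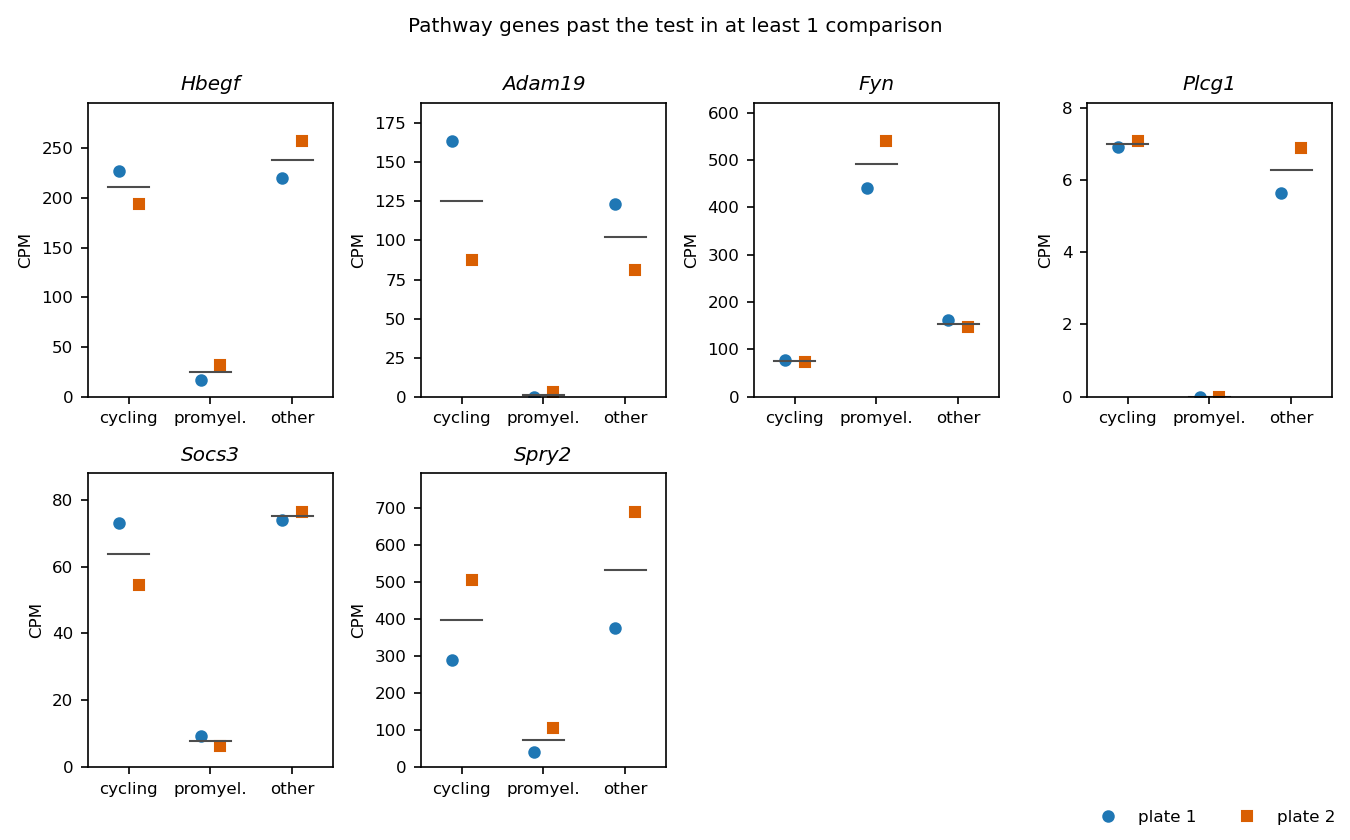
Level in CPM (vertical axes, linear from 0, a scale for each gene) of 6 of the 7 other pathway genes past the edgeR test in at least 1 comparison, in sums over cycling, promyelinating (promyel.) and other cells, with circles for plate 1, squares for plate 2 and a bar at the mean. Fyn is highest in promyelinating cells, with 442 and 540 CPM, and the other 5 genes shown are lowest there.

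Fewer of these genes were called when cells with a high dissociation response were left out, a step that also left fewer cells. When cells above the median of the summed response (3758 CPM) were left out, 25 and 22 cycling, 44 and 46 promyelinating and 85 and 89 other cells stayed on plates 1 and 2. Of the 68 pathway genes, 0 were then called by edgeR for promyelinating against other cells and 1, Fyn, for promyelinating against cycling cells. The log2 difference from other cells was 1.88 for Fyn, -2.94 for Hbegf and -2.03 for Spry2, while for Socs3 it was -0.95 (adjusted p = 0.0770, 0.278, 0.516 and 1 in edgeR). Against cycling cells the edgeR adjusted p was then 0.970 for Socs3 and 0.168 for Hbegf. Over all 13 alternatives the log2 difference from cycling cells ran from -3.12 to -0.228 for Socs3 and from -3.37 to -2.36 for Hbegf. Over all genes the calls fell as well, from 238 to 56 for promyelinating against other cells. The part of the dissociation response in these differences was not tested.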

How the data were processed

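Libraries were mapped with STAR 2.6.1c and counted with featureCounts on GRCm38.p5 per the submitters' processing notes. The methods of the study name Ensembl 91 and a human assembly, whereas gene IDs in the table are mouse IDs. Strand use in counting is not stated, and the protocol does not mark strand. Exons of Psenen, Timp3, Stub1, Nrg4 and Tgfa also overlap other counted genes on the opposite strand, so their levels are uncertain as for Erbb2. The table the authors deposited holds raw read counts for each gene and well, without molecular identifiers or normalisation. Symbols and exon lengths came from GENCODE M21 (25664 of 25700 IDs matched), and 1 symbol was matched through RefSeq.

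Plates were taken from the sample titles, and 0 columns were without a sample. Wells under 1500 genes were left out, no doublet caller was run on the singly sorted cells, cells were classed at 50 CPM, and reads were summed per plate and class. CPM scales a sum to 1000000 reads. The edgeR 4.0.16 fit used TMM scaling, filterByExpr, robust glmQLFit and no plate term. Intervals are 95% intervals of its coefficients. Binomial intervals are exact (Clopper-Pearson), and 3 reads were taken as the floor. Alternatives were a plate block, DESeq2 1.42.0, limma 3.58.1 on log2 values with a pseudocount of 1, RLE scaling, no filter on low counts, class thresholds of 20 and 100 CPM, minimums of 1000 and 2500 genes, cycling cells with Ncmap left out, cells thinned to 100000 reads, and each plate alone. A further one that leaves out cells above the median dissociation response was chosen after seeing the data. Samples of a plate come from the same pool of mice, and the deviations of the class sums correlated across 3713 genes with r of 0.10, 0.21 and 0.15, so the plates pair the sums weakly. The main fit does not use this pairing, and the plate block is the alternative that does.

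The members and lists were chosen with earlier results of these data known. Genes named were the members, pathway genes past the threshold and the 3 leading genes per kilobase of each role; genes most like a member needed a mean rho of 0.3. Dusp6, Grb7 and the genes listed at 0 were in the pathway list. A few genes of the lists are not reported here by name. The fits were also run on simulated sums with known changes, where edgeR missed part of the changed genes and called some unchanged ones. A gene that is not called is therefore not shown to be unchanged. Cells are not replicates. The edgeR p-values rest on the spread between only 2 plates, pooled over the classes and drawn towards the spread of other genes.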

Additional observations from a re-analysis of the deposited data

Results flagged for a closer look

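Reads of the members were also present in the 122 wells set aside for having fewer than 1500 detected genes. These wells held 8311 reads of Erbb3 in 18 wells, 4858 of Gab1 in 4 wells, 1964 of Bace1 in 12 wells, 1822 of Adam17 in 7 wells, 949 of Ptpn11 in 5 wells and 29 of Erbb2 in 4 wells, each above the floor of 3 reads. Nrg1 and Errfi1 had 0 reads there. Erbb3 took 436 CPM of these wells on plate 1 and 238 CPM on plate 2, against 352 and 241 CPM in the kept cells of the same plates. Gab1 was higher in these wells, at 219 and 282 CPM against 47.0 and 48.7 CPM, and Erbb2 was lower, at 0.891 and 3.4 CPM against 70.4 and 94.4 CPM. Adam17 had 86.6 and 88.3 CPM against 110 and 126 CPM, Bace1 113 and 14.3 CPM against 103 and 73.3 CPM, and Ptpn11 56.4 and 0 CPM against 100.3 and 83.7 CPM. There were no empty control wells among the samples, and what these wells held was not tested.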

How the results depend on the processing

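No member passed the threshold under any of the alternatives with a test, and of their log2 differences 247 kept their direction and 26 did not, all short of the threshold. For cycling against other cells, Erbb3 was 0.028 with DESeq2, 0.028 with RLE scaling, 0.68 on the mean of log2(CPM + 1), 0.073 and 0.0039 with class thresholds of 20 and 100 CPM, 0.12 in thinned cells and 0.21 with low dissociation response. There, Gab1 was -0.026 and Bace1 0.25 on the mean of log2 values, Ptpn11 was -0.025 with the replicate block and -0.067 at 20 CPM, and Adam17 was 0.12 and Bace1 0.055 in cells of at least 2500 genes and Adam17 0.42 with low dissociation response. For promyelinating against other cells, the mean of log2 values gave 0.52 for Erbb2, 0.79 for Erbb3, 0.76 for Ptpn11 and 0.034 for Errfi1, low dissociation response gave 0.85 for Erbb2 and 0.088 for Ptpn11, and cells of at least 2500 genes gave -0.034 for Bace1. For promyelinating against cycling cells, the mean of log2 values gave 0.042 for Erbb2, 0.10 for Erbb3, 0.020 for Gab1 and 0.17 for Adam17, and cells of at least 2500 genes gave -0.089 for Bace1. The cause was not tested.

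Counts of calls moved more. Pathway genes called in the 3 comparisons were 1, 9 and 14 with DESeq2, 8 and 13 in the latter 2 on the mean of log2 values, and 0 and 1 in the latter 2 with low dissociation response. All genes called were 801, 1009 and 2277 with DESeq2, 317, 521 and 1290 without the filter, 214, 387 and 1362 with limma on the log2 mean CPM, 653, 1053 and 2351 on the mean of log2 values, 217 and 365 in the former 2 in thinned cells, and 68, 56 and 313 with low dissociation response. The share of calls in the higher direction was 88.8%, 27.7% and 35.7%, and 98.0%, 81.8% and 50.9% on the mean of log2 values, which moved the median of all genes to 0.09, 0.15 and 0.04; for cycling against other cells it was 56.6% with DESeq2, 71.6% without the filter and 75% with low dissociation response. With the replicate block, 156, 295 and 885 genes were called, and of the named genes Adam19 and Plcg1 lost their calls against cycling cells and Dusp6 gained one; no other call on a named gene changed.

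Of the levels and shares of members under other settings, 40 moved by less than 1 SD between plates and 32 by more. The 40 include all values of Nrg1, which had no reads in any setting and so could not move. With 2 plates, leaving out either leaves 1 sum per class and no test. The spread between plates sets the limit in the main fit, which has no plate term. For cycling against other cells its 95% intervals ran from -0.71 to 0.68 for Erbb3 and from -0.36 to 2.22 for Gab1.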
